A study of Mus musculus with 16 samples.

Results

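Krt14-high cells are 76 cells of 4 single-cell libraries from 2208L mouse mammary tumors, chosen by their own UMI counts (unique molecular identifiers, each standing for 1 captured RNA molecule). A cell was a member when it held at least 20 UMIs of Krt14 and at most 2 UMIs of the leukocyte genes Ptprc and Csf1r together. Members are 76 of the 13830 tumor cells kept by a filter on genes per cell (over 200, under 6000) and mitochondrial UMIs (10% or less), and 76 of 2678 epithelial cells. 0 of 59346 cells kept in the 12 bone marrow libraries of the series met the rule, and no marrow cell held a single Krt14 UMI. Because Krt14, Ptprc and Csf1r chose the cells, their levels are given as a description only, and so are those of the 6 genes that define epithelial cells here.

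The study asked what IACS-70654, an oral inhibitor of the bromodomain of the acetyltransferases CBP and P300, does to tumors and their immune infiltrate. 2208L is a Trp53-null mammary tumor that is passed on by implanting tumor pieces into female syngeneic immunocompetent BALB/c mice, so each of the 4 groups carries the Trp53-null tumor. Mice received vehicle, IACS-70654, anti-PD1 antibody or IACS-70654 and anti-PD1 (here the combination), for 7 days, with IACS-70654 given on a schedule of 3 days on and 2 days off, and viable sorted cells of 3 mice were pooled into 1 library per group. With 1 library per treatment there is no replicate of a treatment and no test between treatments. The libraries held 2062 to 5343 barcodes and 15590289 to 43594797 UMIs, 1974 to 5064 cells were kept, their median depth ran from 4724 to 6332 UMIs, and no barcode was shared between the tumor libraries.

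Keratins are paired filament proteins whose members mark kinds of epithelium. In the mammary duct, luminal cells carry Krt8 and Krt18, and the basal, myoepithelial layer carries Krt5 and Krt14 under the transcription factor p63, together with smooth muscle proteins. Stratified epithelia such as skin also use Krt14 with Krt5 in their lowest layer, turn on Krt6 and Krt16 on wounding, and in their upper layers build a cornified envelope from loricrin, small proline-rich proteins and transglutaminases.

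Cells were compared with Krt14-low epithelial cells. An epithelial cell held at least 5 UMIs over the panel Epcam, Cdh1, Krt7, Krt8, Krt18 and Krt19 and at most 2 of Ptprc and Csf1r. Krt14-low cells had at most 4 Krt14 UMIs (2541 cells), and 61 cells with 5 to 19 were set apart as Krt14-intermediate. All 76 members met the epithelial panel, although the rule did not ask for it.

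Members were found almost solely in tumors given IACS-70654. The vehicle library had 0 of 362 epithelial cells, with an exact 95% interval of 0 to 1.01%, while a floor of 3 cells would be 0.829%. The IACS-70654 library had 30 of 724, or 4.14% (exact 95% interval 2.81 to 5.86), the anti-PD1 library had 1 of 464, or 0.216% (0.0055 to 1.19), and the combination library had 45 of 1128, or 3.99% (2.92 to 5.30). The shares of the 2 libraries given IACS-70654 lay within each other's intervals and above those of the other libraries. These intervals cover counting error only, and since the cells were proposed for study with this pattern in view the shares are a description. Krt14-intermediate cells were 0.553% of the epithelial cells with vehicle, 3.31% with IACS-70654, 0.862% with anti-PD1 and 2.75% with the combination.

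**Figure D1:**
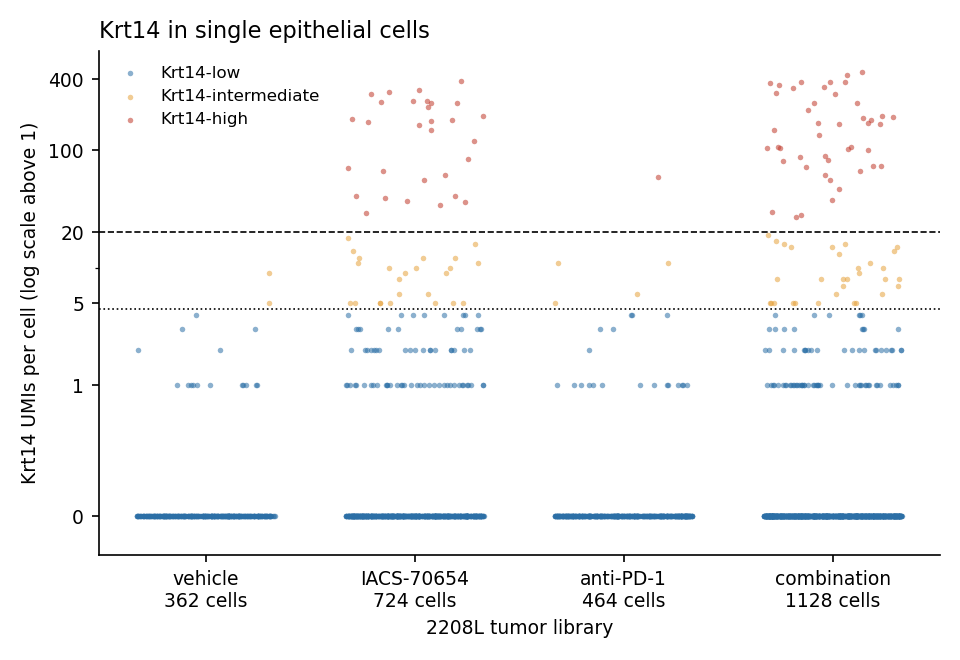
Krt14 UMIs in every epithelial cell of the 4 tumor libraries, on a logarithmic axis above 1 UMI, with points spread sideways for legibility. The dashed line marks 20 UMIs and the dotted line the upper limit of the Krt14-low class, and the members lie between 27 and 458 UMIs, with 30 in the IACS-70654 library, 45 in the combination library, 1 in the anti-PD1 library and 0 with vehicle.

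Krt14 was not spread evenly across the cells. Members of the IACS-70654 library held 29 to 391 Krt14 UMIs with a median of 169, and those of the combination library 27 to 458 with a median of 147. No member lay between 20 and 26 UMIs, and just under the limit 9 cells had 15 to 19. Of the Krt14-low cells, 4.44% with vehicle, 10.9% with IACS-70654, 4.36% with anti-PD1 and 7.79% with the combination held at least 1 Krt14 UMI. Immune cells, which should lack it, held one in 0.676% to 2.53% of cells, at a median depth of 4964 to 6487 UMIs against 13974.5 to 16027 in Krt14-low cells. Members were shallower than the cells they were compared with, at a median of 8685 UMIs in the IACS-70654 library and 8074 in the combination library. Their median share of mitochondrial UMIs was 1.80% and 1.51%, against 1.90% and 1.92% in Krt14-low cells.

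A further 12 cells reached 20 Krt14 UMIs and were left out for their Ptprc and Csf1r UMIs, 1 in the IACS-70654 library and 11 in the combination library. They held 51 to 456 Krt14 UMIs and a median of 54.5 UMIs of Krt6a, against 39 in members. Their median of C1qa, a complement gene of macrophages, was 2 UMIs, where immune cells had a median of 72, but a single cell held up to 162. Lyz2, S100a8 and S100a9 had medians of 0.5, 0.5 and 1.5 UMIs and reached 81, 127 and 279 in a cell. Cxcr2 was seen in 5 of the 12, so some of them carried much leukocyte RNA. They were put in no class.

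The cells did not carry the set of genes that defines basal mammary cells. Krt5, the filament partner of Krt14, had 0 UMIs in the 75 members of the IACS-70654 and combination libraries, and Trp63, which encodes p63, also had 0. In the 1722 Krt14-low cells of the same libraries both were near 0 too, with 1 and 7 UMIs over all of these cells. Of 13 contractile myoepithelial genes, 8 had 0 UMIs in the members, among them Acta2, Myh11, Cnn1, Mylk and Oxtr, of which the last 4 had at most 10 UMIs in the Krt14-low cells too. Cald1 and Tpm1, which encode actin-binding proteins that many cell types use, were seen in 70 and 66 of 75 members, and 0 of the 4 genes of the list that were tested were called. The label of the cells as basal-like is therefore not borne out by Krt5 and Trp63, and they are called Krt14-high cells here.

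Genes were tested between Krt14-high and Krt14-low cells on UMIs summed per class in the IACS-70654 and the combination library, the 2 libraries with at least 10 members, with the library as a block (edgeR's quasi-likelihood test). Among 11951 genes tested, 661 (5.53%) were higher and 473 (3.96%) lower in Krt14-high cells. A gene was called where its Benjamini-Hochberg adjusted p lay below 0.01 and its log2 change exceeded 0.5 in either direction. Levels are given as CPM, the UMIs of a gene scaled to a common total for each summed class. The median log2 change of all genes tested was -0.07. Of the 1134 genes called, 1131 had the same sign in each library, and 148 rose and 70 fell by at least 8-fold. The libraries are 2 pools that differ in treatment, so the p-values measure how far the class difference held in these 2 pools against a spread that was shared across genes, and they say nothing of the spread between mice.

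**Figure D2:**
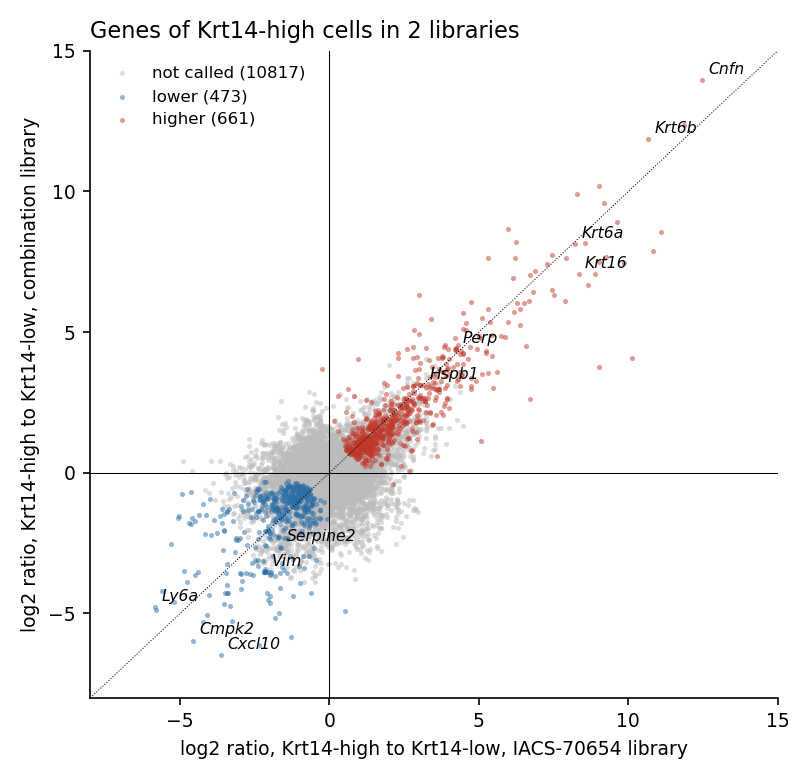
Log2 ratio of Krt14-high to Krt14-low cells in the IACS-70654 library (horizontal) and the combination library (vertical), with 0.5 added to the UMIs of each sum, for the 11951 genes tested. Red points are the 661 genes called higher, blue points the 473 called lower, and the dotted line marks equal ratios; Cnfn, Krt6b, Krt6a and Krt16 lie far along it in both libraries.

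The stress keratins were the most marked group. Of 7 keratins listed for stress and squamous epithelium, 5 passed the filter on low counts. Leaving aside Krt6a, which named the cells, 4 were tested and 4 were higher, with log2 changes from 2.45 to 11.26; Krt6b, nearly lacking in Krt14-low cells, passed the filter through the members. Krt6a, a keratin of wounded and proliferating epidermis and a marker given for these cells beforehand, stood at 4198 CPM in members of the IACS-70654 library and 4746 CPM in those of the combination library, against 13.9 and 16.9 CPM in Krt14-low cells. It is among the 661 genes called higher, but since it was named with the cells its level is a description and its call supports nothing. Krt6a was seen in 27 of 30 and 42 of 45 members, at medians of 35 and 46 UMIs per cell and up to 145. Most members therefore carried it, and the few without it were spread over both libraries.

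Krt16, the filament partner of Krt6, was at 2299 and 2510 CPM in members and 7.06 and 18.9 CPM in Krt14-low cells, a log2 change of 7.57 (SE 0.28, adjusted p = 4.6e-149 in edgeR). Krt6b, a close copy of Krt6a whose reads may in part be assigned to either gene, was at 1351 and 1301 CPM in members and under 1 CPM in Krt14-low cells. Krt80 rose by 5.56 (SE 0.29) and Krt23 by 2.45 (SE 0.27) on the log2 scale. Krt13 had 1 UMI and Krt4 had 0 in the members, so these keratins of mucosal squamous epithelium were at most barely detectable at this depth.

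The same keratins were scarce in Krt14-low, Krt14-intermediate and immune cells, but not in the 12 cells left out for leukocyte UMIs, of which 11 held at least 10 UMIs of them. Counting Krt6a, Krt6b, Krt16, Krt13, Krt4, Krt23 and Krt80 together, 26 of 30 and 42 of 45 members held at least 10 UMIs. As Krt6a named the cells, these counts are a description. Among Krt14-low cells only 1 of 360 with vehicle, 4 of 670 with IACS-70654, 1 of 459 with anti-PD1 and 12 of 1052 with the combination did so, and among the 61 Krt14-intermediate cells 2 did. Taken without any condition on Krt14, cells with at least 10 Krt6a UMIs numbered 0 of 1974 with vehicle, 27 of 4739 with IACS-70654, 0 of 2053 with anti-PD1 and 60 of 5064 with the combination. Of those 87 cells, 64 were members, 11 were cells left out for leukocyte UMIs, 11 were Krt14-low and 1 was Krt14-intermediate.

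**Figure D3:**
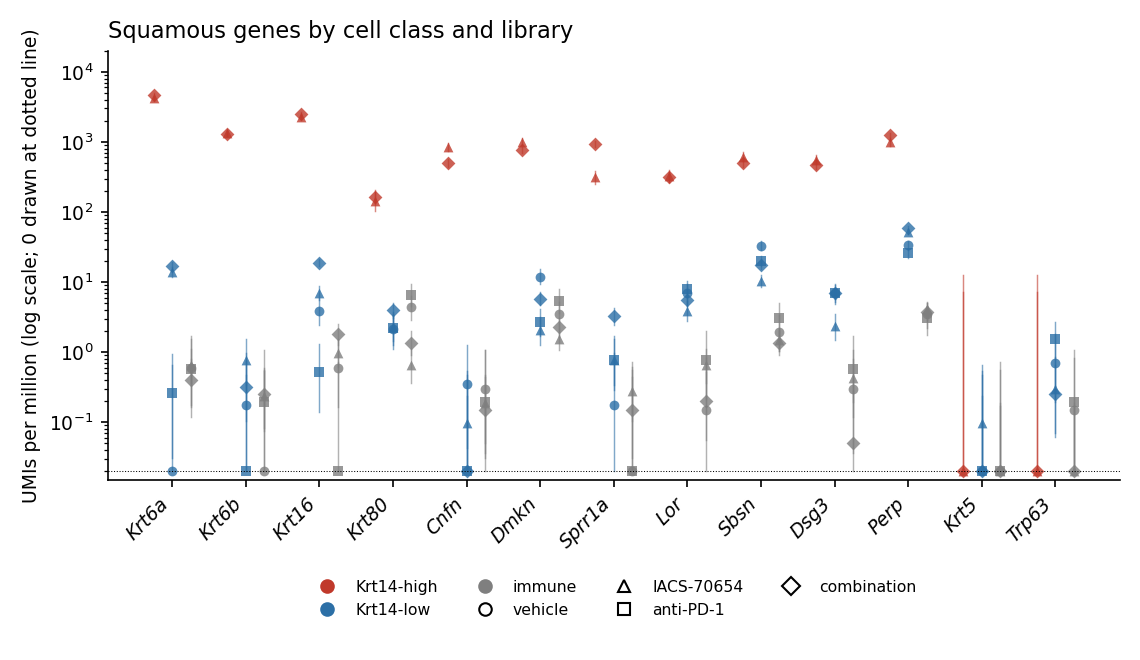
CPM of 11 squamous genes and of the basal markers Krt5 and Trp63 in summed Krt14-high, Krt14-low and immune cells, 1 symbol per library, on a logarithmic axis with exact Poisson 95% intervals that cover counting error only. Krt14-high sums are shown for the IACS-70654 and combination libraries; for the 11 squamous genes they lie above every Krt14-low and immune sum, while Krt5 and Trp63 are at 0 in them.

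Genes of the cornified envelope and of squamous differentiation rose with the keratins. Of 26 listed genes, 11 had 0 UMIs in the members, 15 passed the filter and 12 were higher and 0 lower, with a median log2 change of 4.68. Some of them, such as Cnfn, Cdsn and Tgm1, could pass only through the members, which fixed their direction, and with no filter 12 of 18 were higher, with a median of 3.89. After thinning 11 of 14 were higher and 1 lower. Cnfn, which encodes cornifelin of the cornified envelope, was at 840 and 504 CPM in members and was all but lacking in Krt14-low cells, with 1 UMI in 1722 cells, which gives a log2 ratio of 13.99 over the summed libraries (exact 95% counting interval 11.51 to 19.30). It was seen in 8 of 30 and 21 of 45 members, and in the IACS-70654 library 1 cell held 186 of its 248 UMIs. Cnfn thus marked a subset of the members.

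Lor, which encodes loricrin, the main protein of the cornified envelope, was seen in 22 of 30 and 40 of 45 members, though at a median of only 2 UMIs per cell. Its summed level was 328 and 316 CPM against 3.92 and 5.64 CPM in Krt14-low cells, a log2 change of 6.01 (SE 0.23). Sprr1a, a small proline-rich protein that is cross-linked into the envelope, was at 311 CPM in the IACS-70654 library and 934 CPM in the combination library, in 9 of 30 and 17 of 45 members. Its log2 change against Krt14-low cells was 8.24 (SE 0.26). Tgm1, the transglutaminase that cross-links the envelope, had a log2 change of 4.68 (SE 0.69), on 19 UMIs in the members and 22 in Krt14-low cells. The filter fixed its direction. Cdsn, which encodes corneodesmosin, also had 19 UMIs in the members and 3 in Krt14-low cells, a log2 ratio of 7.67 (counting interval 5.91 to 10.07).

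Dmkn and Sbsn, secreted proteins of the upper epidermis, rose by 7.71 (SE 0.25) and 5.27 (SE 0.20) on the log2 scale, and were seen in 59 and 61 of 75 members. Perp, a desmosome protein that p63 and p53 are known to induce, was seen in 74 of 75 members at 999 and 1258 CPM, against 52.7 and 60.1 CPM. S100a14 was also seen in 74, and its log2 change was 4.70 (SE 0.21). Sfn, Serpinb5 and Lypd3 rose by 2.00, 1.33 and 3.63 on the log2 scale. Krt10, a keratin of the layers just above the basal one, was at 57.6 and 39.1 CPM against 36.0 and 28.6 CPM and was not called, and Krt1, its partner, had 0 UMIs. Also at 0 were Flg, Ivl, Krtdap and the Sprr2 genes listed. The members therefore held a part of the genes of upper epidermis and not the whole set.

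The genes were not held alike by all members. Of the 75 members in the IACS-70654 and combination libraries, 59 had UMIs of both Krt6a and Krt16 and 5 had neither. Lor and Cnfn were both present in 28, Lor without Cnfn in 34, Cnfn without Lor in 1, and neither in 12. All 26 members with Sprr1a also had Lor. To take out depth, each cell was thinned at random to 5000 UMIs, which left out 12 members. Among the 63 left, 87.3% kept a Krt6a UMI, 73.0% Krt16, 66.7% Lor, 31.7% Cnfn and 22.2% Sprr1a, whereas of the Krt14-low cells of these libraries 1.29%, 1.66%, 2.27%, 0.0615% and 0.492% did.

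Counted as 1 set of 33 genes, the stress keratins and cornified genes made up 0.0836% to 10.6% of the UMIs of a member, with a median of 1.31%, and 42 of 75 members were at 1% or more. The set includes Krt6a, which named the cells and held 3670 of the 6908 stress keratin UMIs in members, so these shares are a description. Only 3 of 2541 Krt14-low cells and 0 of 61 Krt14-intermediate cells reached 1%. The ranges overlapped at the low end, as 1774 Krt14-low cells lay at or above the lowest member. Lgals7, a galectin of the list, was at 961 and 1072 CPM in Krt14-low cells and 755 and 854 CPM in members, and was not called. Krt14-intermediate cells had medians of 0.140% with IACS-70654 and 0.174% with the combination, against 0.109% and 0.124% in Krt14-low cells and 1.15% and 1.46% in members.

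Desmosomes, the junctions that anchor keratin filaments between cells, showed the same direction. Of 9 desmosome genes, 8 were tested, 5 were higher and 0 lower, with a median log2 change of 1.93. Dsg3, the desmoglein of lower epidermis and the antigen of pemphigus vulgaris, was at 559 and 473 CPM against 2.35 and 6.91 CPM, a log2 change of 6.72 (SE 0.22). Pkp1 (log2 change 4.32), Dsc2 (4.30), Dsp (2.43) and Jup (1.42) encode plakophilin, desmocollin, desmoplakin and plakoglobin and were the other 4 called. Dsg2 and Pkp3, with log2 changes of 0.53 and 0.61, were not called.

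Genes of basal attachment did not follow. Of 14 basal keratins and junction genes, 10 were tested, with 2 higher and 2 lower and a median log2 change of -0.38, and DESeq2 called 1 higher and 0 lower. The higher ones were Krt17, seen in 26 of 75 members, and Krt15, whose 36 UMIs came from 5 members, 31 of them from 1 cell. The lower ones were Dst, which links hemidesmosomes to keratin, with a log2 change of -1.29 (SE 0.32), and the integrin Itga3, with -1.52 (SE 0.39). Itga6 and Itgb4, the hemidesmosome integrin pair, had changes of -0.67 and -0.45 and were not called. Of 9 laminin and basement membrane genes tested only Lamb1 was called, with a log2 change of -2.54, and DESeq2 called 0. The median log2 change of the list was -0.30. With a limit of 40 Krt14 UMIs 3 were lower and the median was -1.01.

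Of 9 epithelial transcription factors tested from the basal list, 4 were higher and 1 lower. Ovol1, a zinc finger factor of epidermal differentiation, was at 366 and 334 CPM against 30.4 and 43.1 CPM, a log2 change of 3.20 (SE 0.19), and was seen in 62 of 75 members. Klf5 rose by 1.55 and Sox9 by 0.65, and Tfap2c fell by 1.09 on the log2 scale, although 0 genes of the list were lower with DESeq2, after thinning or with at least 40 Krt14 UMIs. Irx4 and Snai2 had 0 UMIs in the members.

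**Figure D4:**
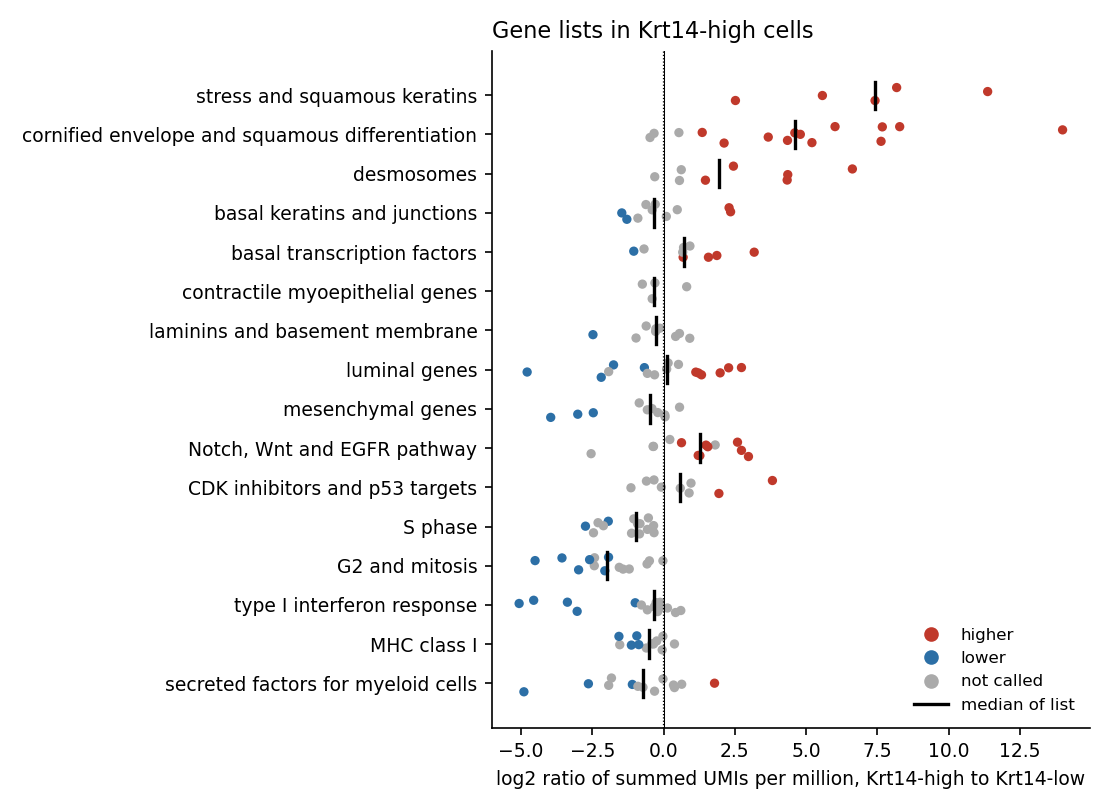
Log2 ratio of Krt14-high to Krt14-low cells for the tested members of 16 gene lists, from UMIs summed over the IACS-70654 and combination libraries, with a gene of 0 UMIs in the members set to 3. Red and blue points were called higher and lower, grey points were not called, black bars are list medians, and the dotted line is the median of all genes tested; keratins, cornified genes and desmosomes lie to the right, and mitosis genes to the left.

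Krt14-high cells kept luminal genes of the tumor but not evenly. The panel genes were in part used for the comparison class and are described only. Epcam was at 2519 and 2025 CPM in members against 1642 and 1661 CPM, and Krt7 at 2096 and 2059 against 584 and 710 CPM. Krt18, the partner of Krt8, was at 1537 and 1584 CPM in members and 2132 and 3033 CPM in Krt14-low cells, and was seen in 64 of 75 members and 99.8% of Krt14-low cells. Members held a median of only 4 Krt18 UMIs and up to 282 in a cell, so its summed level came mostly from part of them. Krt8 was at 1469 and 1436 CPM in members and at 1253 and 2101 CPM in Krt14-low cells, but it sat in fewer of the members. It was seen in 50 of 75 members, whereas 97.5% of Krt14-low cells had it. Members held a median of 2 Krt8 UMIs and up to 355 in a cell. After thinning these shares were 73.0% and 92.0%. All 25 members without a Krt8 UMI held Krt6a, as did 44 of the 50 with one, so the shares were near that of all members (69 of 75).

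Of the 16 other luminal genes tested, 6 were higher and 4 lower, and DESeq2 called 4 higher and 2 lower. The epithelial factors Elf3 and Ehf rose by 1.93 (SE 0.20) and 1.11 (SE 0.19), Kit by 1.20, Cldn4 by 1.19 and the EGF receptor ligand Areg by 2.56 on the log2 scale, and Ltf, which encodes lactoferrin, was the sixth called higher. Lcn2, a secreted iron-siderophore binder, was at 1436 and 3182 CPM in members against 9481 and 7974 CPM, a log2 change of -2.05 (SE 0.31). The milk protein gene Csn3 had 2 UMIs in the members against 1770 in Krt14-low cells, a log2 ratio of -4.78 (exact 95% counting interval -7.83 to -2.93). Prlr, the prolactin receptor, had a change of -2.18, and Cldn7 of -0.78. Elf5 and Cldn3 were not called, with changes of 0.11 and 0.50, and Esr1, Pgr and Krt19 had 0 UMIs.

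Receptor and ligand genes of the Notch and EGF pathways were raised in part. Of 21 genes listed for Notch, Wnt and EGFR signaling 13 were tested, 8 were higher and 0 lower, with a median log2 change of 1.27, and DESeq2 called 3 of 20 higher. Notch3 rose by 2.57 (SE 0.25), Notch2 by 1.54 (SE 0.28) and the Notch target Hes1 by 0.67 (SE 0.19), and Notch1 was not called at -0.45. Erbb2, Erbb3 and Tgfa rose by 1.49, 1.19 and 1.27. Axin2, a target of Wnt signaling, had a log2 change of 2.96 (SE 0.74) on 12 UMIs in 9 members and 49 UMIs in Krt14-low cells. It passed the filter through the members, which fixed its direction, so its place among the 8 is a description.

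Few UMIs of cell division genes were found in the members. The 15 genes of G2 and mitosis had 15 UMIs in all over the 75 members, and 8 of them had 0. Their summed level was 27.1 and 13.7 CPM in members against 160 and 239 CPM in Krt14-low cells. Of 14 tested, 6 were lower (Cenpf, Ube2c, Mki67, Cdk1, Top2a and Birc5), but DESeq2 and the fit on cells thinned to 5000 UMIs called 0 of them, so these calls depend on the fit. The thinned fit tested 9 genes of the list and left out 12 members, so the part of depth alone was not tested. Of the 14, 7 had 0 UMIs in the members and passed the filter through the Krt14-low cells, which fixed their direction. Cdk1, the mitotic kinase, had 0 UMIs in members, or 6.03-fold lower with a floor of 3 UMIs over the members of both libraries. The floor leaves out the spread between cells, so it is no lower bound. After thinning, Cenpf, Ube2c, Cdk1 and Top2a were seen in 0% of members and in 2.77%, 5.10%, 5.47% and 4.61% of Krt14-low cells. Mki67 was seen in 3.17% and 4.61%, and Birc5 in 1.59% and 6.33%. Their UMIs in Krt14-low cells thus came from few cells. Of 14 S phase genes tested, 2 were lower, Mcm7 and Gins2, and DESeq2 and the thinned fit again called 0. With a limit of 10 Krt14 UMIs 7 were lower, and with no upper limit on genes per cell 5. The S phase list summed to 186 and 123 CPM in members against 255 and 325 CPM in Krt14-low cells. In Krt14-intermediate cells the summed level of the G2 and mitosis genes was 11.9 and 7.27 CPM.

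Of 9 CDK inhibitors and p53 targets tested, 2 were higher, 0 were lower and 7 were not called, and 1 was lower after thinning, without the library block or with a limit of 10 Krt14 UMIs, while 3 were higher with a limit of 40 Krt14 UMIs, with no Ptprc or Csf1r UMI allowed or with no upper limit on genes per cell. Cdkn1a, which encodes the CDK inhibitor p21, was at 636 and 549 CPM in members against 40.8 and 41.4 CPM in Krt14-low cells, a log2 change of 3.80 (SE 0.19, adjusted p = 3.2e-83 in edgeR). It was seen in 27 of 30 and 41 of 45 members. After thinning 77.8% of members and 11.9% of Krt14-low cells had a UMI. Immune cells of these libraries held it at 607 and 624 CPM. Cdkn2b, the inhibitor p15, rose by 1.90 (SE 0.22), while Mdm2, Bax and Ccng1, which p53 induces, had changes of -0.11, -0.65 and 0.56 and were not called, nor were Cdkn2a at -0.41 and Cdkn1b at 0.86. Trp53 itself was at 23.7 and 35.2 CPM in members and 67.3 and 63.9 CPM in Krt14-low cells, a log2 change of -1.13 (SE 0.30), in a tumor that lacks functional p53; a null allele can still give RNA counted by UMIs, and which part of the gene the UMIs came from was not tested.

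The members stood apart from the Krt14-low cells of their own library in part of the interferon response. Of 15 type I interferon genes, 0 were higher and 5 lower, with a median log2 change of -0.35, and DESeq2 called 4 lower, without Rsad2. Cxcl10, a chemokine for T cells, had 5 and 1 UMIs in the members, or 16.9 and 1.95 CPM, against 231 and 260 CPM in Krt14-low cells, a log2 change of -5.07 (SE 0.37). Ifit3 had a log2 change of -3.06 on 8 UMIs, Rsad2 of -3.33 and Bst2 of -1.10, and Ifit2, with 2 UMIs in the members, a ratio of -4.55 (counting interval -7.60 to -2.70). Isg15 at 264 and 330 CPM and Oasl2 were not called, so the difference lay in some genes of the list and not in others. After thinning, Cxcl10 was seen in 4.76% of members and 10.6% of Krt14-low cells, and Ifit3 in 4.76% and 10.5%. Rsad2 was seen in 4.76% and 13.2% and Ifit2 in 1.59% and 6.76%, so these levels came from a minority of cells. The list summed to 1310 and 1443 CPM in members and 2105 and 2511 CPM in Krt14-low cells of the same libraries. In Krt14-intermediate cells it summed to 1434 CPM with IACS-70654, near the members, and 2838 CPM with the combination. In Krt14-low cells of the vehicle and anti-PD1 libraries it summed to 544 and 554 CPM, 1 library each, with no test.

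Of 12 MHC class I genes, 0 were higher and 4 lower, with a median log2 change of -0.56, and 3 were lower with DESeq2 and 2 after thinning. The 4 were the immunoproteasome subunits Psmb9 (log2 change -1.63) and Psmb8 (-0.94) and the nonclassical genes H2-Q4 (-0.95) and H2-Q7 (-1.15). H2-D1, a classical class I heavy chain, was at 2272 and 2531 CPM in members and 2262 and 2681 CPM in Krt14-low cells and was seen in all 75 members. In Krt14-low cells of the vehicle and anti-PD1 libraries it was at 727 and 683 CPM. The H2-D1 level in members thus lay with that of the Krt14-low cells in tumors given IACS-70654, 1 library each, and no test between treatments was possible. Of the 12 genes, 11 had a negative change. The list summed to 4929 and 5603 CPM in members, 4312 and 6998 CPM in Krt14-intermediate cells and 6129 and 7229 CPM in Krt14-low cells of the same libraries. In Krt14-low cells of the vehicle and anti-PD1 libraries it summed to 2267 and 2156 CPM.

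The genes that fell furthest outside these lists included other interferon-induced genes, and those with few UMIs in the members passed the filter through the Krt14-low cells, which fixed their direction. Cmpk2, a mitochondrial nucleotide kinase, had 0 UMIs in members against 1370 in Krt14-low cells, or 14.2-fold lower with a floor of 3 UMIs. DESeq2 did not call Cmpk2. Gbp4, a guanylate-binding protein, had 1 UMI against 1735, a log2 ratio of -5.75 (counting interval -11.06 to -3.27), and the chemokine Cxcl9 had 1 against 1683, a ratio of -5.71 (-11.01 to -3.23). Iigp1, an immunity-related GTPase, had 11 against 5319, a log2 change of -3.94 (SE 0.33). Ly6a, which encodes Sca-1, had 2 UMIs against 3107 (ratio -5.59, interval -8.64 to -3.74), Ptn, the growth factor pleiotrophin, 1 against 2328 (-6.18, -11.48 to -3.70), and the water channel Aqp5 2 against 2402 (-5.22, -8.27 to -3.37). Ptn was seen in 34 of 1722 Krt14-low cells (1.97%) and in 1 of 75 members (1.33%). Its UMIs thus came from few cells, and the share of cells holding it was similar in both classes. The counting intervals treat UMIs as independent and leave out the spread between cells, so a fall of Ptn is not established. Ly6a was seen in 6.21% of Krt14-low cells and 2.67% of members, so its level also came from few cells. Iigp1 was seen in 35.5% of Krt14-low cells and in 6 of 75 members. The others named by the rule for the largest falls were Csn3, Ifit2, Cxcl10 and Rsad2, given above, and Sema7a, St6gal1 and Acsl4, with log2 changes of -3.47, -3.42 and -3.31, and the imprinted RNA H19, with 2 UMIs in the members and a ratio of -4.42 (-7.46 to -2.56).

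Among the genes with the largest rises several are known from squamous epithelium, and many were so scarce in Krt14-low cells that they passed the filter through the members, which fixed their direction. Besides Cnfn, Krt6a, Krt6b, Krt16, Dmkn and Sprr1a they were Mal (174 UMIs in members and 9 in Krt14-low cells), Ly6g6e (75 and 6), Lypd6b (62 and 6), Endou (50 and 5), Cysrt1 (44 and 5) and the airway serine protease gene Tmprss11d (246 and 37, a log2 change of 7.64, SE 0.28). Clic3, a chloride channel family member, had 93 UMIs in members and 3 in Krt14-low cells, a log2 ratio of 9.96 (counting interval 8.37 to 12.27). Clic3 was seen in 42 and Mal in 38 of 75 members, and in 0.174% and 0.348% of Krt14-low cells. Cryba4, a crystallin gene, had 138 UMIs in 27 members and 0 UMIs in the 1722 Krt14-low cells, which makes it at least 1480-fold higher with a floor of 3 UMIs over the Krt14-low cells. DESeq2 did not call Cryba4. Klk14, a serine protease of desquamation, had 49 UMIs, of which 31 came from 1 member, and was seen in 4 members.

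Of 16 genes that the study names for its tumor cells, 1 was higher and 7 lower in Krt14-high cells. Hspb1, which encodes the small heat shock protein HSP27, was at 1849 and 2146 CPM in members against 212 and 248 CPM, a log2 change of 3.08 (SE 0.22), and was seen in 73 of 75. The log2 changes of fibronectin (Fn1), Serpine2, Mia, Fgfr1 and Cd200 were -2.49, -2.21, -1.86, -1.56 and -1.25, and Bst2 and H2-Q4, given above, were also lower. The targets of the drug, Crebbp and Ep300, were at 223 and 127 CPM and at 115 and 68.4 CPM in members, with log2 changes of 0.12 (SE 0.20) and 0.42 (SE 0.23), and were not called. Of 10 mesenchymal genes tested, 3 were lower, Fn1, Col3a1 and Vim, and DESeq2 and the thinned fit called 2. Col3a1, with 1 UMI in the members, passed the filter through the Krt14-low cells, which fixed its direction. It was seen in 33 of 1722 Krt14-low cells (1.92%) and 1 of 75 members (1.33%), so a fall of Col3a1 is not established. Vim had 16 UMIs in all members, a log2 change of -3.01 (SE 0.31).

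Of 16 secreted factors for myeloid cells 13 were tested, with 1 higher and 3 lower, whereas DESeq2 called 1 higher and 0 lower and the thinned fit 1 and 1. Csf3, 1 of the 3 lower, passed the filter through the Krt14-low cells, which fixed its direction. Cxcl2, a neutrophil chemokine, rose by 1.49 (SE 0.19), at 146 CPM in the IACS-70654 library and 506 CPM in the combination library. Its 302 UMIs came from 17 of 75 members (22.7%, against 29.7% of Krt14-low cells, and 17.46% against 16.04% after thinning), so the rise was carried by few cells. Cxcl2 was at 1111 and 1356 CPM in immune cells, and the part of their RNA was not tested. Cxcl1, another neutrophil chemokine, had a log2 change of -1.15 (SE 0.26). After thinning it was seen in 14.3% of members and 14.2% of Krt14-low cells, so the share of cells holding it was alike. Cxcl5 had 3 UMIs in the members, a log2 ratio of -2.63 (counting interval -4.92 to -1.08), and Csf3, which encodes G-CSF, had 1, a ratio of -4.89 (-10.20 to -2.41).

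Markers of other cell types were looked at for RNA of neighboring cells. Of 5 neutrophil markers 3 were higher in members, S100a9, Cxcr2 and G0s2, although DESeq2 called 0 and the thinned fit 1, and the summed level of the list was 620 and 176 CPM in members against 71.5 and 97.6 CPM in Krt14-low cells and 469 and 554 CPM in immune cells. Cxcr2 had 8 UMIs in 2 members and 30 UMIs in the Krt14-low cells, so it passed the filter through the members, which fixed its direction. S100a9 was seen in 21 of 75 members, 1 of which held 102 of its 169 UMIs, and S100a8 in 15. Squamous epithelium can also express S100a8 and S100a9, and the part of neutrophil RNA was not tested. The 6 macrophage markers summed to 653 and 910 CPM in members, 1504 and 1165 CPM in Krt14-low cells and 78008 and 75974 CPM in immune cells, and 2 of them, C1qc and Apoe, were called lower in members, but 0 by DESeq2. Fibroblast markers came to 8 UMIs over all members, with Col1a1, Dcn and Lum at 0 and 2 of 4 tested, Col3a1 and Dcn, called lower, but 0 by DESeq2, by the thinned fit or without the library block. Both passed the filter through the Krt14-low cells, which fixed their direction, and were seen in only 1.92% and 1.68% of those cells. The lists for endothelial, T and NK, B, erythroid and adipocyte cells gave 7, 2, 1, 4 and 0 UMIs. Schwann markers gave 92 UMIs and no call in the 1 gene tested, and of the 4 pericyte markers Rgs5, Pdgfrb and Des were at 0 while Notch3, given above, was higher. Of 16 epidermis and hair follicle markers 6 were tested, 5 were higher (Lor, Sbsn, Dmkn, Krt15 and Krt79) and 10 had 0 UMIs in the members.

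The lone member of the anti-PD1 library differed from most of the others in its genes. It held 59 Krt14 UMIs among 22466, 0 UMIs of Krt6a, Krt6b, Krt16, Cnfn, Lor and Sprr1a, and 74 UMIs each of Krt8 and Krt18. It also held 42 UMIs of Krt79 and 12 of Krt15, which were seen in 24 and 5 of the other 75 members. At least 1 UMI of the stress keratins was seen in 27 of 30 members of the IACS-70654 library and 44 of 45 of the combination library, so a few others lacked them too. The anti-PD1 member is 1 cell, and it entered no test.

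To set the members beside the Krt14-low cells by a measure that does not rest on marker genes, the median log2 ratio to immune cells was taken for the genes of each autosome. Gains and losses of chromosomes in a tumor shift the RNA of many genes on them together. Ratios were centred on the median of all genes used on the 19 autosomes and computed within a library, over genes above 30 CPM. On chromosome 14 the median was -0.74 in Krt14-high and -0.80 in Krt14-low cells of the IACS-70654 library, and -0.76 and -0.77 in the combination library. In collagen-rich cells of the same libraries, 31 and 30 cells with at most 1 UMI of the epithelial panel and at least 5 of Col1a1, Col1a2 and Col3a1, it was 0.17 and 0.20.

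Chromosomes 4, 12 and 17 were also lower in both epithelial classes, with Krt14-high values of -0.30, -0.20 and -0.33 in the IACS-70654 library and -0.32, -0.36 and -0.33 in the combination library. Chromosomes 3, 6 and 15 were higher in both, at 0.30, 0.30 and 0.23 in Krt14-high cells of the IACS-70654 library and 0.20, 0.19 and 0.22 in the combination library. So was chromosome 18, the highest in Krt14-high cells, at 0.55 and 0.28 against 0.30 and 0.30 in Krt14-low cells. Over the 19 autosomes the Krt14-high and Krt14-low values correlated with r = 0.95 in the IACS-70654 library and 0.99 in the combination library, while Krt14-high and collagen-rich values gave -0.18 and -0.36. These correlations are descriptions over 19 points that share a library and the same immune reference. The largest gap between Krt14-high and Krt14-low cells on any autosome was 0.25, on chromosome 18 in the IACS-70654 library, and 0.11, on chromosome 3 in the combination library. Whether copies of the chromosomes differ was not tested. Both classes are epithelial and no class of normal epithelium was compared. A profile shared by epithelial cells therefore cannot be told apart here from one shared by tumor cells.

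**Figure D5:**
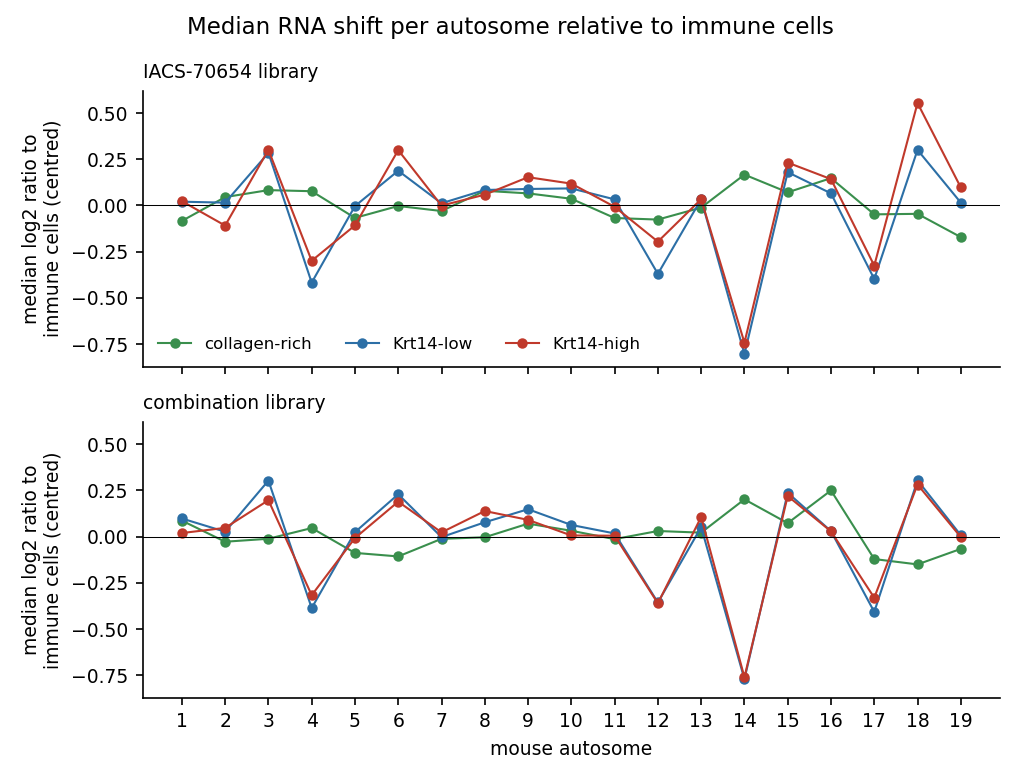
Median log2 ratio to immune cells of the same library over the genes of each mouse autosome, centred on the median of all genes, for Krt14-high (red), Krt14-low (blue) and collagen-rich cells (green) in the IACS-70654 and combination libraries. The lines of Krt14-high and Krt14-low cells run together, with the lowest point at chromosome 14 (-0.74 to -0.80), where collagen-rich cells are at 0.17 and 0.20.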

How the data were processed

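The authors sorted live cells of dissociated tumors, labelled samples with CellPlex tags and made the deposited UMI count of each gene and cell with Cell Ranger on mm10, per the submitters' processing notes. The tumor files name version 7.1.0. Counts were deposited without normalization.

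Cells were filtered and classed on raw counts in Python 3.11.15 (scipy 1.17.1, pandas 2.3.3). The doublet caller in scanpy 1.11.5 marked 23 of 13830 cells (0.166%), too few to be of use. Tags remove doublets between samples only. UMIs were summed per library and class, filtered with filterByExpr, scaled by TMM and tested in R 4.3.3 with edgeR 4.0.16 (quasi-likelihood, Benjamini-Hochberg). The libraries given vehicle and anti-PD1 held 0 and 1 members and were left out of that fit. Standard errors were derived from the change and its test statistic. DESeq2 1.42.0, other scalings, limits and thinning were alternatives. Tests were tried on simulated data first. Chromosomes came from GENCODE vM21. Named genes were those of 28 lists and the 15 largest rises and 15 largest falls among genes called at 50 CPM or more with the same sign in each library. The members and lists were chosen with earlier results of these data known. Results for some genes are not reported here.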

Additional observations from a re-analysis of the deposited data

How the results depend on the processing

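The shares of Krt14-high cells moved by less than their counting intervals under every alternative run, and with a limit of 10 Krt14 UMIs they were 5.66% with IACS-70654, 5.05% with the combination, 0.647% with anti-PD1 (3 of 464 cells) and 0 with vehicle. The share among cells with at least 5000 UMIs, chosen after seeing the data, was 3.89% and 3.43%. Among genes, DESeq2 called 333 higher and 153 lower, and cells thinned to 5000 UMIs gave 434 higher and 338 lower. The other fits gave 540 to 723 genes higher and up to 552 lower. The median log2 change of all genes was -0.07, 0.22 with DESeq2 and -0.56 with no filter on low counts. Cryba4, Cmpk2 and Rsad2 were not called by DESeq2 (adjusted p = 0.015, 0.49 and 0.12), and the cause was not tested. Leaving out the IACS-70654 or the combination library left 1 library, so values without a test remained. The 30 genes with the largest changes were chosen for 1 sign in each library, which fixed their direction there. Without a library block 684 genes were higher and 444 lower. No paired analysis was possible because each tumor group is 1 library with no replicate number in its labels, so no numbers pair libraries across groups; both classes were compared within a library, as above. Treatment differences within Krt14-high cells were not run, since vehicle and anti-PD1 libraries held 0 and 1 members. The 75 members limit calls for genes of low level, and 0 UMIs in them is no proof of absence.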
